A study of Homo sapiens with 6 samples.

Results

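MTAP, MAT2A, PRMT5, WDR77, APIP, ENOPH1, ADI1, SRM, SMS and AMD1 are 10 of the 35410 genes in the count table, and they were chosen by name as genes of methionine salvage, polyamine synthesis and the methylation machinery that depends on MTAP. All 10 genes had enough counts to be tested. Polyadenylated RNA was counted by MACE-Seq (massive analysis of cDNA ends, which reads 1 tag near the 3′ end of each transcript) in 3 biological replicates of each of 2 SEM cell lines. SEM is a leukemia cell line labelled as proB cells, and the study describes it as carrying the KMT2A::AFF1 fusion. SEM::mock had been transfected with an empty vector and SEM::EGR3 overexpressed the transcription factor EGR3 from an inducible transgene. Both lines received doxycycline at 1 µg/mL for 48 h before RNA extraction, so the drug was shared by the groups. Whether each line was a clone or a pool is not given in the sources used here.

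In the methionine salvage pathway, the by-product of polyamine synthesis, methylthioadenosine, is turned back into methionine. MTAP cleaves methylthioadenosine into adenine and a methylthioribose phosphate, which MRI1, APIP, ENOPH1 and ADI1 carry towards methionine. MAT2A makes S-adenosylmethionine from methionine, AMD1 decarboxylates it, and SRM and SMS use the product to make spermidine and spermine. Methylthioadenosine that is not cleaved inhibits PRMT5, an arginine methyltransferase that works as a complex with WDR77. MTAP lies next to the tumour suppressor genes CDKN2A and CDKN2B, with which it is often lost in leukemias and other tumours, and cells without MTAP are known to depend more strongly on PRMT5 and MAT2A.

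The libraries held 5286115 to 6181388 counts in SEM::mock and 7293092 to 15106018 counts in SEM::EGR3. EGR3 itself had 8, 10 and 6 counts in SEM::mock, compared with 9768, 4952 and 5557 counts in SEM::EGR3, a log2 fold change of 8.78 (SE 0.11, adjusted p = 1.27e-26, edgeR). The labelled cell type was checked against marker genes. Of 15 proB and B-lineage markers, 11 had at most 3 counts in every SEM::mock library and 4 in every SEM::EGR3 library, and EBF1 and IGHM were at 0 in all SEM::mock libraries. The summed level of these markers was 135 to 158 CPM (counts per 1000000 after scaling of the libraries) in SEM::mock, where CD24 held most of it, and 678 to 710 CPM in SEM::EGR3. The 12 markers of KMT2A-fusion leukemia summed to 65.7 to 78.1 CPM in SEM::mock and 1298 to 1362 CPM in SEM::EGR3, and 4 of them had at most 3 counts in every SEM::mock library. Of 15 erythroid markers, 13 were above that level in both lines, with sums of 5131 to 5494 CPM in SEM::mock and 6316 to 6552 CPM in SEM::EGR3. The summed levels of myeloid markers were 297 to 307 CPM in SEM::mock and 236 to 238 CPM in SEM::EGR3, those of T and NK markers 92.4 to 105 and 136 to 147 CPM, and those of megakaryocyte markers 11.2 to 12.2 and 15.5 to 17.2 CPM. Most B-lineage markers, EBF1, IGHM and PAX5 among them, were thus near absent from the libraries labelled SEM::mock, whereas CD24 was higher there (143.7 CPM against 23.5 CPM in SEM::EGR3). Of the 12 KMT2A-fusion markers, 8 were above 3 counts in at least 1 SEM::mock library, some only just. Among these, FLT3 had 1, 0 and 4 counts in SEM::mock and HOXA5 had 4, 5 and 6. Each of the 12 had a higher mean level in SEM::EGR3. The induced EGR3 and any other difference between these lines cannot be told apart, and the part of either in the results that follow was not tested. The 6 libraries are 3 replicates of 1 line against 3 of the other, so p-values measure the spread between replicates of a line.

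MTAP was close to undetected in SEM::mock and present in every SEM::EGR3 library. Of the other 9 genes, the polyamine synthesis genes SRM, SMS and AMD1, the PRMT5 partner WDR77 and the salvage genes APIP and ENOPH1 were lower in SEM::EGR3, ADI1 was higher, and MAT2A and PRMT5 passed no threshold. In all, 2 of 10 genes were higher and 6 lower at an adjusted p under 0.05 (edgeR quasi-likelihood test over 15465 tested genes), and 8 of 10 had no overlap between the libraries of the lines. Among all tested genes 68.5% passed the same threshold, 36.5% as higher and 32.0% as lower, and 70.1% had no overlap, so a passing call was the usual state of a gene in this comparison. Only MTAP was called with a log2 fold change of 1 or more in either direction, against 25.2% of all genes. The median log2 fold change was -0.38 over the 10 genes and 0.03 over all tested genes, and the median absolute value was 0.49 against 0.46.

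**Figure D1:**
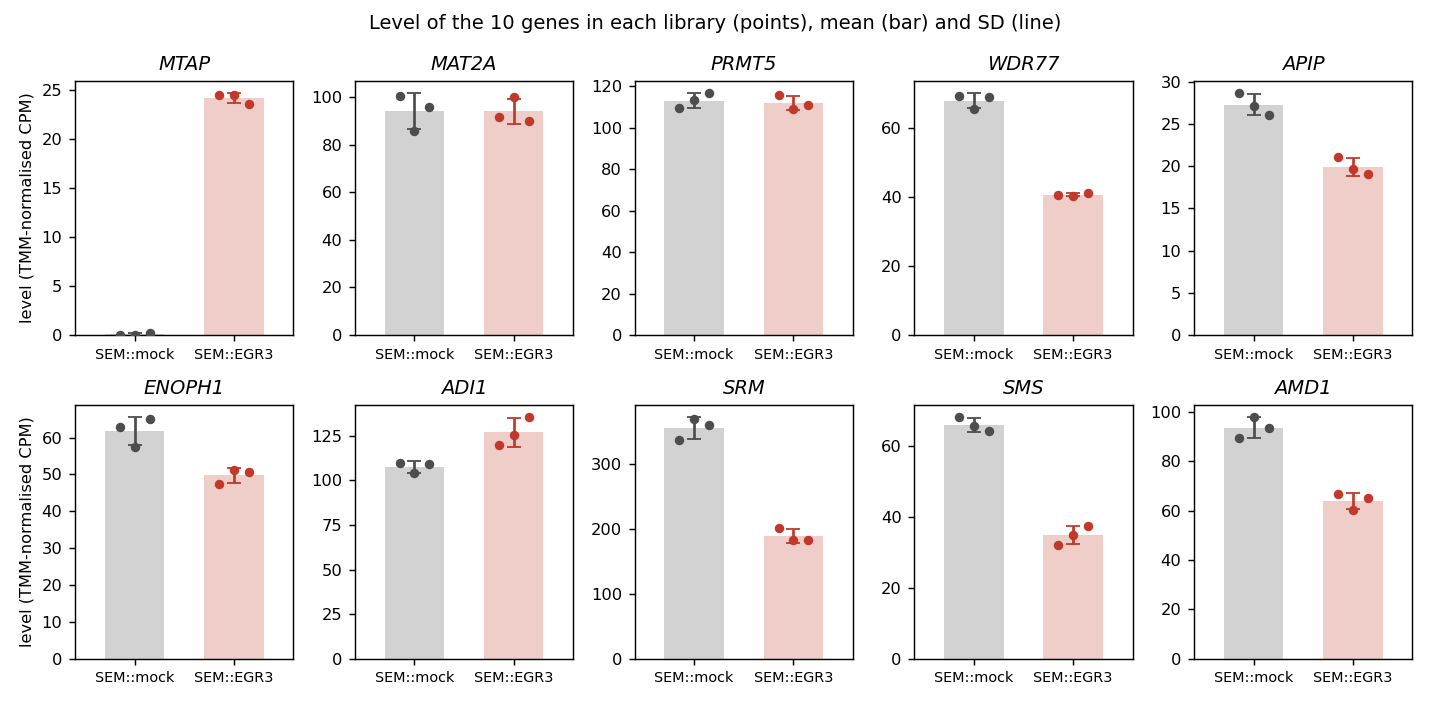
Level of each of the 10 genes in CPM (vertical axes, linear from 0) in the SEM::mock libraries (grey) and the SEM::EGR3 libraries (red); points are libraries, bars the mean of 3 and lines the SD. MTAP is at 0 to 0.196 CPM in SEM::mock and 23.7 to 24.5 CPM in SEM::EGR3, the points of MAT2A and PRMT5 overlap, and the other genes separate the lines.

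Promoter sequence was read because EGR3, whose level differs between the lines, is a transcription factor with a known binding motif. RefSeq windows of 250 bases before each annotated start (GRCh38.p14) matched all 10 genes, with 12 windows in all since AMD1 has 3. The EGR motif was searched as GCGTGGGCG or GCGGGGGCG and the E-box as CACGTG, each on both strands, and the 2 motifs share no letters in any of these windows. An EGR motif was found in 4 of the 12 windows, those of ENOPH1, SRM, SMS and the far upstream start of AMD1, and in 5.37% of all 35116 windows. These windows are rich in G and C, and 9 of the 12 held at least 65% G and C. Among the 11387 windows with that content, 13.9% held an EGR motif. An E-box was found for ENOPH1, ADI1 and SRM, against 6.34% of all windows. MTAP, MAT2A, PRMT5, WDR77 and APIP had neither motif in their windows. The 4 genes with an EGR motif were all lower in SEM::EGR3, as were 6 of the 10 genes in all. AMD1 is among the 4 only through its far upstream start, since its other windows held no EGR motif. The motif is not particular to EGR3, since the study lists EGR1 among the factors that it matched. EGR1 differed in the opposite direction to EGR3, with means of 306.7 CPM in SEM::mock and 51.5 CPM in SEM::EGR3. Its log2 fold change was -2.56 (SE 0.08, adjusted p = 2.76e-19, edgeR), and the part of either factor was not tested. A match is a run of letters and says nothing of binding, which was not measured in these libraries. The study combined these data with EGR3 binding data of SEM::EGR3 from its earlier work, which were not used here.

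The sites are shown with 10 bases on either side because they are the EGR motif matches among the 10 genes, each 5′ to 3′ on the strand of its gene. Capitals mark the motif, which in all 4 reads on the opposite strand. Their first bases lie 125, 62, 45 and 44 bases before the start, in chr4:82430455-82430483 (ENOPH1, plus strand), chr1:11060062-11060090 (SRM, minus strand), chrX:21940654-21940682 (SMS, plus strand) and chr6:110814563-110814591 (AMD1, plus strand). These distances are from the RefSeq starts. GENCODE 29 places the start of SMS farther upstream, so the SMS site lies within its first annotated exon there. The AMD1 site lies far upstream of the GENCODE 29 start of AMD1 (110874770).
ENOPH1: tctttgttccCGCCCACGCgaggcccatt
SRM: gcgcgggctcCGCCCCCGCcggcaggccc
SMS: ggaccggcccCGCCCCCGCgccccgggtc
AMD1: ttcaaaccgcCGCCCCCGCgaggcgctca

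The bases before the start of SRM and MTAP are shown for contrast, since SRM holds both motifs and MTAP, the gene with the greatest difference of the 10, holds none. Both are given 5′ to 3′ on the strand of the gene and end where the first annotated exon begins. The SRM stretch (chr1:11060025-11060268, minus strand) has the E-box first and the EGR motif second in capitals, in a window of 82.0% G and C. The MTAP stretch (chr9:21802386-21802542, plus strand) has no capitals, and its window held 50% G and C.
SRM: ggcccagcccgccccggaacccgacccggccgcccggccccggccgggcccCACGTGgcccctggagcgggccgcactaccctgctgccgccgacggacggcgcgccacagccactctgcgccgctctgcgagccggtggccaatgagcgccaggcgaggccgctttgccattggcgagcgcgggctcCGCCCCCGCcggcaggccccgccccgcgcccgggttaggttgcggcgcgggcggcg
MTAP: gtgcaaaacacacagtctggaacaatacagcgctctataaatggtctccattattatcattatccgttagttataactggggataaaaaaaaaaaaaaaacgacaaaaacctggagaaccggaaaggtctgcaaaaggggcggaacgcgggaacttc

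MTAP (ENSG00000099810, GRCh38, plus strand, chromosome 9, 21802543 to 21937651, a protein-coding gene with 14 annotated transcripts in GENCODE 29) encodes the only enzyme of the pathway that cleaves methylthioadenosine. Its counts were 0, 0 and 1 in SEM::mock, compared with 380, 182 and 214 in SEM::EGR3. The groups were far apart, and the lowest SEM::EGR3 library held 182 counts where the highest SEM::mock library held 1. The mean level was 0.0654 ± 0.113 CPM in SEM::mock against 24.2 ± 0.497 CPM in SEM::EGR3 (SD, n = 3 each). Because every SEM::mock library was at or under 3 counts, the difference is given as a bound against 3 counts per library, which put MTAP at least 44.8-fold higher in SEM::EGR3 (adjusted p = 9.48e-17, edgeR). In bulk RNA, fewer cells that express a gene and less RNA per cell cannot be told apart.

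A gene at the detection limit in SEM::mock was uncommon among genes with a clear level in SEM::EGR3. Of 10197 genes with a mean of at least 10 CPM in SEM::EGR3, 226 (2.22%) had at most 3 counts in every SEM::mock library. On chromosome 9 the share was 19 of 412 genes (4.61%). The genes whose pattern was most like that of MTAP, by Pearson's r of log2(CPM + 0.5) over the 6 libraries, were CD248 (r = 0.9999), HSPB7 (r = 0.9999) and IGLL1 (r = 0.9998), the last of which encodes a part of the surrogate light chain of pre-B cells. All of them had 0, 0 and 1 counts in SEM::mock, as MTAP did. With 6 libraries in 2 groups such values are common, since 1180 of 15465 tested genes had r above 0.99.

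The genes beside MTAP on the short arm of chromosome 9 were read in the same libraries. The table lists 15 genes from FOCAD to CDKN2B (chromosome 9, 20658309 to 22009363, GRCh38), MTAP included and CDKN2B-AS1 left out. None of the 15 had more than 3 counts in any SEM::mock library, and 6 of them did in at least 1 SEM::EGR3 library. Summed over the 15 genes, the SEM::mock libraries held 4, 1 and 6 counts and the SEM::EGR3 libraries 3236, 1531 and 1855.

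Apart from MTAP, most of these counts came from FOCAD, KLHL9 and CDKN2A. FOCAD, the focadhesin gene, had 0, 1 and 0 counts in SEM::mock, compared with 168, 89 and 106 in SEM::EGR3, which was at least 21.3-fold more (adjusted p = 1.73e-13, edgeR). KLHL9, an adaptor of a ubiquitin ligase, had no count in SEM::mock, compared with 309, 128 and 166 in SEM::EGR3, which was at least 34.3-fold more (adjusted p = 8.07e-15, edgeR). CDKN2A, which encodes the cell cycle inhibitors p16 and p14ARF, had no count in SEM::mock, compared with 2356, 1127 and 1357 in SEM::EGR3, which was at least 279.9-fold more (adjusted p = 2.04e-22, edgeR). CDKN2B, the gene of the related inhibitor p15, had no count in SEM::mock, compared with 9, 4 and 5 in SEM::EGR3, which was too few to be tested.

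Detected genes flanked this stretch in both lines, close by on the MLLT3 side, while on the other side the next coding gene above 10 counts in every library was CAAP1, which starts 5.09 Mb from the start of MTAP. MLLT3, the next listed coding gene before it, had 109, 108 and 106 counts in SEM::mock, compared with 70, 27 and 44 in SEM::EGR3, a log2 fold change of -2.13 (SE 0.15, adjusted p = 3.14e-12, edgeR), opposite in direction to MTAP. CDKN2B-AS1, an antisense RNA that begins within the stretch at 21994778, overlaps CDKN2A and CDKN2B and extends beyond them, had 402, 475 and 316 counts in SEM::mock, compared with 911, 452 and 621 in SEM::EGR3, a log2 fold change of -0.19 (SE 0.08, adjusted p = 0.0449, edgeR). The use of strand in counting is not given in the sources used here, so reads of the antisense RNA and of the genes on the other strand might not be fully separated, although CDKN2A and CDKN2B had no count in SEM::mock. Farther out, RRAGA, HAUS6, PLIN2, DENND4C and the ribosomal protein gene RPS6 on the one side, and CAAP1, PLAA, IFT74, MOB3B and C9orf72 on the other, held 28 to 5978 counts in every SEM::mock library. Within 4 Mb before and 6 Mb after the start of MTAP, 20 of the 41 listed genes wholly outside the stretch had more than 3 counts in a SEM::mock library and 24 in a SEM::EGR3 library. DNA copy number was not measured in these libraries.

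**Figure D2:**
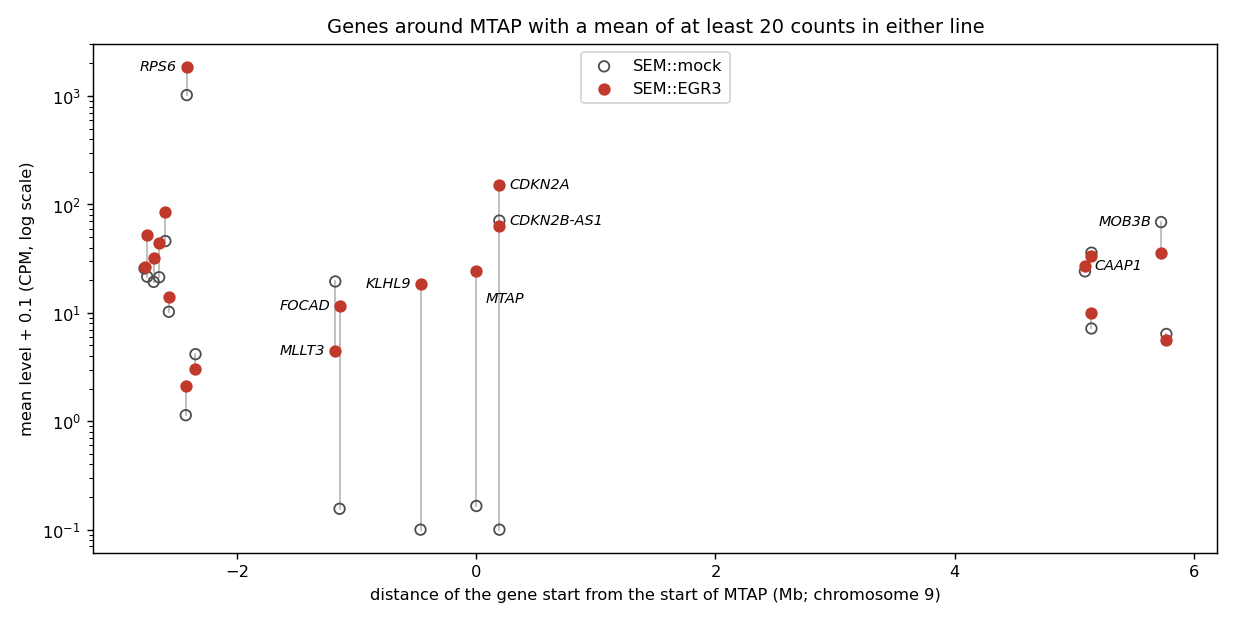
Mean level plus 0.1 CPM (vertical, log scale) of genes near MTAP against the distance of their start from the start of MTAP in Mb (horizontal), open grey circles for SEM::mock and red circles for SEM::EGR3, with a line joining the lines' values of a gene. FOCAD, KLHL9, MTAP and CDKN2A lie at the bottom in SEM::mock only, between flanking genes with circles of both lines well above it.

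The genes that follow MTAP in the salvage pathway were detected in every library, and their differences were small. APIP (ENSG00000149089, chromosome 11, 34853094 to 34916499), the dehydratase of the pathway, had 28.6, 27.1 and 26.1 CPM in SEM::mock and 21.0, 19.7 and 19.0 CPM in SEM::EGR3. All SEM::EGR3 values lay below all SEM::mock values, and the log2 fold change was -0.45 (SE 0.10, adjusted p = 2.48e-04, edgeR). ENOPH1 (ENSG00000145293, chromosome 4, 82430562 to 82461091), the enolase-phosphatase, had 62.9, 57.5 and 64.9 CPM in SEM::mock and 47.3, 51.2 and 50.6 CPM in SEM::EGR3. The groups did not overlap, and ENOPH1 fell by 0.32 on the log2 scale (SE 0.07, adjusted p = 3.89e-04, edgeR).

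ADI1 (ENSG00000182551, chromosome 2, 3497361 to 3519736), the dioxygenase that follows ENOPH1, went the other way. It had 109.9, 103.8 and 109.0 CPM in SEM::mock and 119.6, 125.3 and 135.5 CPM in SEM::EGR3. Every SEM::EGR3 library was above every SEM::mock library, and ADI1 rose by 0.23 on the log2 scale (SE 0.06, adjusted p = 1.69e-03, edgeR).

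Of the 9 listed salvage genes, 8 were tested and all 8 passed the threshold, 4 as higher and 4 as lower, where 68.5% of all genes passed it. Beside the 10 genes, MRI1, the isomerase that acts right after MTAP, fell by 0.42 on the log2 scale (SE 0.11, adjusted p = 1.43e-03, edgeR). The transaminases that can close the pathway differed in direction among themselves. KYAT1 rose by 0.61 (SE 0.13, adjusted p = 2.77e-04) and GOT1 by 0.45 (SE 0.08, adjusted p = 2.43e-05), while KYAT3 fell by 0.84 (SE 0.10, adjusted p = 5.09e-08), all on the log2 scale in edgeR.

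**Figure D3:**
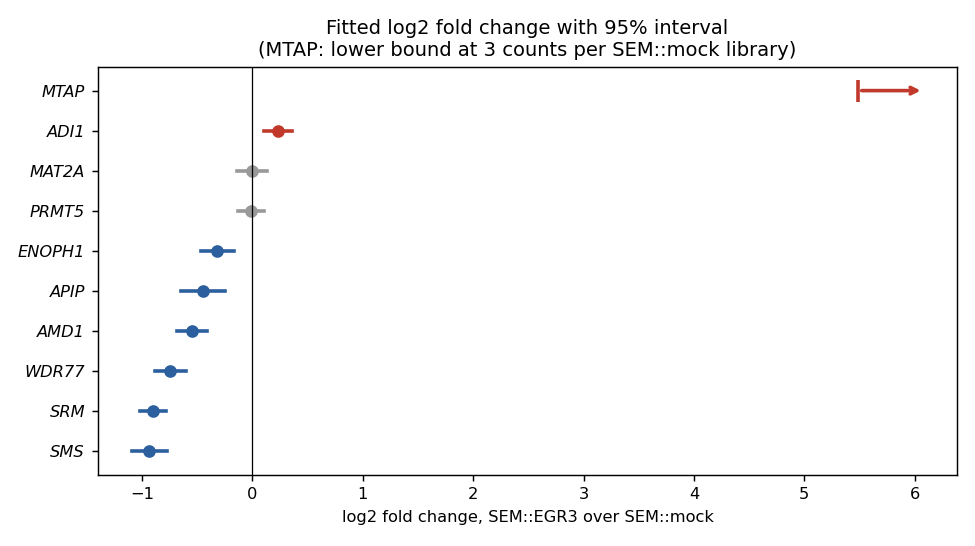
Fitted log2 fold change of SEM::EGR3 over SEM::mock (horizontal) with its 95% interval for 9 of the genes, and for MTAP the lower bound of 5.49 with an arrow, red for higher, blue for lower and grey for genes that passed no threshold. SMS and SRM lie lowest at -0.93 and -0.90, and the intervals of MAT2A and PRMT5 include 0.

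SRM, SMS and AMD1, which act in the later steps of polyamine synthesis, were lower in SEM::EGR3. SRM (ENSG00000116649, chromosome 1, 11054584 to 11060024), spermidine synthase, whose promoter holds both motifs, had 336, 369 and 360 CPM in SEM::mock and 202, 183 and 183 CPM in SEM::EGR3. The groups were well apart, with means of 355 ± 16.8 and 189 ± 10.8 CPM (SD, n = 3), and SRM fell by 0.90 on the log2 scale (SE 0.06, adjusted p = 4.84e-13, edgeR). SMS (ENSG00000102172, chromosome X, 21940573 to 21994835), spermine synthase, had 68.2, 65.5 and 64.3 CPM in SEM::mock and 32.2, 35.0 and 37.5 CPM in SEM::EGR3. The highest SEM::EGR3 value was below the lowest SEM::mock value, and SMS fell by 0.93 on the log2 scale (SE 0.08, adjusted p = 6.51e-11, edgeR).

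AMD1 (ENSG00000123505, chromosome 6, 110874770 to 110895713), the decarboxylase that supplies both synthases, had 89.6, 98.0 and 93.3 CPM in SEM::mock and 66.7, 60.2 and 64.99 CPM in SEM::EGR3. AMD1 fell by 0.54 on the log2 scale (SE 0.07, adjusted p = 6.97e-08, edgeR), again without overlap of the groups. Of 11 listed polyamine synthesis genes, 8 were tested, of which none rose, 6 fell and 2 passed no threshold, which is 75% called against 68.5% of all genes. Their median log2 fold change was -0.56 against 0.03 over all genes. Without SRM, SMS and AMD1, 3 of 5 tested genes fell and the median was -0.27. The 3 were ARG2, AZIN1 and OAZ2, and the median was the value of OAZ2 (SE 0.07, adjusted p = 1.07e-03, edgeR). OAZ2 is an antizyme, which acts against ODC1, so its fall is not that of a synthesis step.

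ODC1, ornithine decarboxylase, the first committed step of polyamine synthesis, was among the genes that passed no threshold. ODC1 had 2193, 2132 and 1781 counts in SEM::mock, compared with 5248, 2421 and 3108 in SEM::EGR3, a log2 fold change of -0.12 (SE 0.05, adjusted p = 0.0553, edgeR). OAZ1, the antizyme that marks ODC1 for degradation, had a log2 fold change of -0.09 (SE 0.05, adjusted p = 0.0973, edgeR). ARG2, an arginase that makes ornithine, fell by 2.34 on the log2 scale (SE 0.17, adjusted p = 5.82e-12, edgeR), and AZIN1, which shields ODC1 from antizyme, fell by 0.58 (SE 0.06, adjusted p = 1.72e-08, edgeR).

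Set against ODC1 within each library, the later steps were lower in SEM::EGR3. Per 100 counts of ODC1 there were 97.7 ± 9.47 counts of SRM in SEM::mock and 56.3 ± 3.15 in SEM::EGR3 (SD, n = 3). For SMS the values were 18.1 ± 0.450 and 10.4 ± 0.764, and for AMD1 25.8 ± 2.32 and 19.0 ± 0.627 (SD, n = 3). These ratios need no scaling between libraries but were chosen after the values were seen, and none of them overlapped between the lines (two-sided exact permutation p = 0.1, the smallest that 3 against 3 allows).

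Of 13 tested genes of polyamine breakdown, transport and use, 4 were higher, 6 lower and 3 without a call. That is 76.9% called against 68.5% of all genes. SAT1, which acetylates spermidine and spermine for export or breakdown, fell by 1.13 on the log2 scale (SE 0.09, adjusted p = 2.28e-11, edgeR) and was named after its value was seen. PAOX, an oxidase of acetylated polyamines, rose by 1.60 (SE 0.41, adjusted p = 1.30e-03, edgeR), with mean levels of 1.05 CPM in SEM::mock and 3.32 CPM in SEM::EGR3. The arginine transporter SLC7A1 rose by 0.82 (SE 0.09, adjusted p = 6.17e-09) and the lysosomal polyamine exporter ATP13A2 fell by 1.34 (SE 0.09, adjusted p = 1.44e-12) in edgeR. EIF5A2, a form of the translation factor that carries the spermidine-derived residue hypusine, fell by 1.17 on the log2 scale (SE 0.18, adjusted p = 2.83e-06, edgeR). Its mean levels were 11.6 CPM in SEM::mock and 5.11 CPM in SEM::EGR3. The far more abundant form EIF5A, at 839 and 678 CPM, fell by only 0.31 (SE 0.05, adjusted p = 1.21e-05, edgeR).

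**Figure D4:**
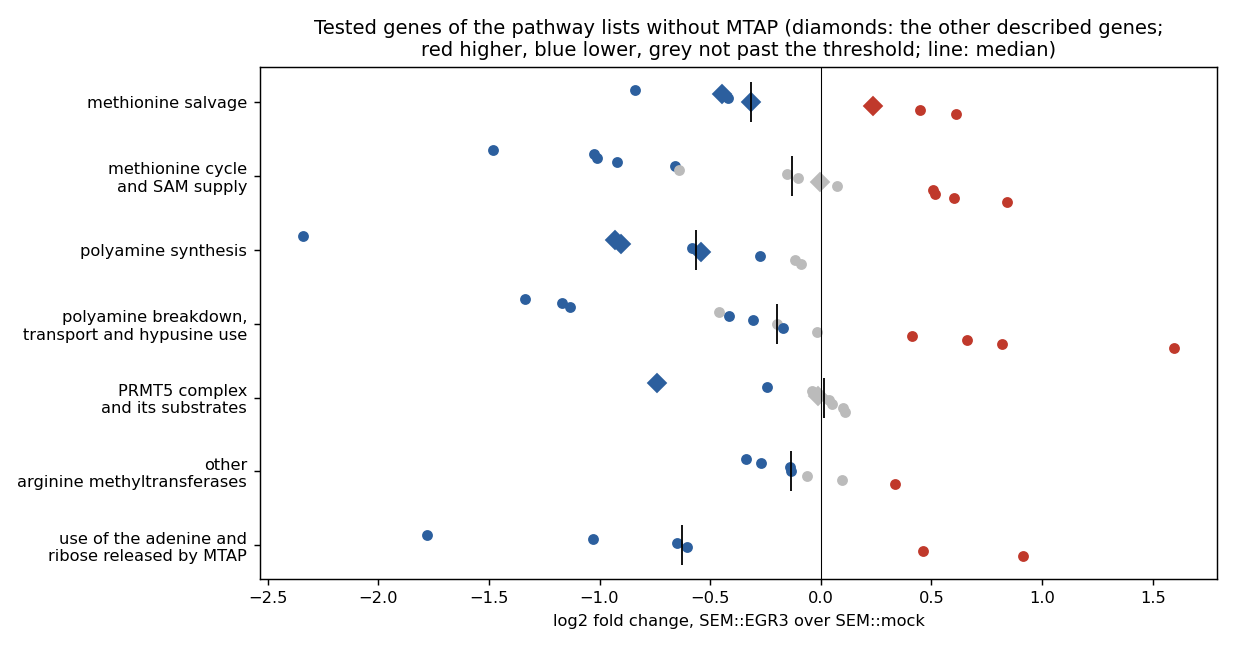
Log2 fold change of SEM::EGR3 over SEM::mock (horizontal) for each tested gene of 7 pathway lists (rows) without MTAP; diamonds are the other described genes, circles further genes, red higher, blue lower, grey without a call, and the black line is the row's median. No gene of the polyamine synthesis row is red, and most of the PRMT5 row is grey around 0.

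MAT2A (ENSG00000168906, chromosome 2, 85539165 to 85545280), the catalytic subunit of the S-adenosylmethionine synthetase, had 100.5, 85.8 and 95.9 CPM in SEM::mock and 91.8, 100.1 and 90.0 CPM in SEM::EGR3. The libraries of the lines overlapped. The log2 fold change was -0.0044 (SE 0.07, 95% interval -0.14 to 0.13, adjusted p = 0.959, edgeR). Under the scaling used, the interval leaves out differences beyond about those bounds, and error of the scaling is not in it. With no normalization factors the log2 fold change was 0.073. The 3′ end of MAT2A overlaps exons of GGCX on the other strand, which had 208, 237 and 213 counts in SEM::mock, compared with 427, 206 and 253 in SEM::EGR3, and reads of these genes might not be fully separated. MAT2B, the regulatory subunit of the same enzyme, rose by 0.84 on the log2 scale (SE 0.07, adjusted p = 8.35e-11, edgeR). Per 100 counts of MAT2A there were 53.9 ± 4.79 counts of MAT2B in SEM::mock and 96.6 ± 0.695 in SEM::EGR3 (SD, n = 3), without overlap (two-sided exact permutation p = 0.1, the smallest possible, chosen after the values were seen).

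Of 14 tested genes of the methionine cycle and S-adenosylmethionine supply, 4 were higher, 5 lower and 5 without a call. That is 64.3% called against 68.5% of all genes. METTL16, the RNA methyltransferase that regulates MAT2A transcripts, rose by 0.60 on the log2 scale (SE 0.09, adjusted p = 3.77e-06, edgeR). CBS and CTH, the enzymes that draw homocysteine off towards cysteine, fell by 1.48 (SE 0.06, adjusted p = 2.34e-16) and 1.03 (SE 0.16, adjusted p = 4.88e-06) in edgeR.

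PRMT5 (ENSG00000100462, chromosome 14, 22920511 to 22929585) had 109.2, 113.1 and 116.5 CPM in SEM::mock and 115.5, 108.8 and 110.9 CPM in SEM::EGR3. The values of the lines lay among each other, and the log2 fold change was -0.01 (SE 0.06, 95% interval -0.13 to 0.11, adjusted p = 0.875, edgeR). WDR77 (ENSG00000116455, chromosome 1, 111439890 to 111449376), its obligate partner, had 69.4, 65.5 and 69.0 CPM in SEM::mock and 40.5, 40.3 and 41.1 CPM in SEM::EGR3. The groups were well apart, and WDR77 fell by 0.74 on the log2 scale (SE 0.07, adjusted p = 7.75e-10, edgeR). At their 5′ ends, away from the 3′ ends that MACE-Seq tags, WDR77 and APIP overlap exons of ATP5PB and PDHX on the other strand. Per 100 counts of PRMT5 there were 63.6, 57.9 and 59.3 counts of WDR77 in SEM::mock and 35.1, 37.0 and 37.1 in SEM::EGR3 (two-sided exact permutation p = 0.1, the smallest that 3 against 3 allows, chosen after the values were seen).

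Of the 8 genes of the PRMT5 complex and its substrates, all tested, none rose, 2 fell and 6 passed no threshold, so that 25% passed it where 68.5% of all genes did. Beside WDR77, CLNS1A, the adaptor that brings the Sm proteins to PRMT5, fell by 0.24 on the log2 scale (SE 0.05, adjusted p = 3.45e-04, edgeR). The adaptors RIOK1 and COPRS and the Sm protein genes SNRPB, SNRPD1 and SNRPD3 had log2 fold changes of -0.04 to 0.11. Among 7 tested genes of other arginine methyltransferases, 1 rose, 4 fell and 2 passed no threshold. That is 71.4% called, again against 68.5% of all genes. PRMT6 rose by 0.34 on the log2 scale (SE 0.08, adjusted p = 7.60e-04), PRMT7 fell by 0.34 (SE 0.10, adjusted p = 4.55e-03) and PRMT2 fell by 0.27 (SE 0.07, adjusted p = 1.34e-03) in edgeR.

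All 6 tested enzymes that use the products of MTAP or related purine nucleosides passed the threshold, 2 as higher and 4 as lower. Among all tested genes 68.5% passed it. The median log2 fold change of the 6 genes was -0.63. ADA, adenosine deaminase, had 212, 224 and 152 counts in SEM::mock, compared with 165, 75 and 87 in SEM::EGR3, and fell by 1.78 on the log2 scale (SE 0.11, adjusted p = 5.21e-13, edgeR). PNP, the phosphorylase of inosine and guanosine, fell by 1.03 (SE 0.06, adjusted p = 3.02e-14, edgeR). APRT, which recycles the adenine that MTAP releases and was named after its value was seen, fell by 0.65 (SE 0.05, adjusted p = 4.12e-11, edgeR). ADK, adenosine kinase, rose by 0.91 (SE 0.09, adjusted p = 4.31e-09) and PRPS2, which makes the phosphoribosyl donor for adenine recycling, by 0.46 (SE 0.08, adjusted p = 3.24e-05), both on the log2 scale in edgeR. Over all 7 pathway lists without the 10 genes, 13 of 54 tested genes were higher, 25 lower and 16 without a call, which is 70.4% called against 68.5% of all genes.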

How the data were processed

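MACE-Seq libraries of 3 SEM::mock and 3 SEM::EGR3 replicates were analysed from the table of whole-number counts per gene that the authors deposited. The submitters' processing notes name bcl2fastq, Bowtie2 and HTSeq and the build GRCh38. Tool versions, the annotation and the strand setting are not given in the sources used here. The 12 per-sample columns on other scales and the columns of the authors' own comparisons (fold changes and p-values) were not used. The file header spells EGR3 as ERG3, and its columns were matched to the SEM::EGR3 samples on that basis.

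Counts of all genes were filtered with filterByExpr (minimum count 10), scaled by TMM and fitted with the edgeR 4.0.16 quasi-likelihood test in R 4.3.3, with all 6 libraries and no covariate. P-values were adjusted by Benjamini-Hochberg over 15465 tested genes and called at 0.05. SE is the absolute log2 fold change over the square root of F. Levels are TMM-normalised CPM, of 3′ tags and so not per length. A gene with at most 3 counts in every library of a line counted as undetected there, and a bound against 3 counts per library stands for its fold, which covers counting error only. The fit was run on simulated counts in which far fewer genes changed than were called in these data. That run therefore does not test the fit under so many changes. Positions come from GENCODE 29, where 97% of gene identifiers were found, and promoters from RefSeq.

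Besides the 10 genes, up to 2 genes with the largest positive and 2 with the largest negative fold change of each pathway list were named, among called genes whose higher line averaged 20 counts or more, and for chromosome 9 the listed genes that averaged 20 counts or more in either line. CDKN2B, OAZ1, OAZ2, SAT1, APRT, ODC1, EIF5A, EGR1, and the PRMT5 cofactors and Sm genes without a call were named after their values were seen. The genes, lists and tests were chosen with earlier results of these data known. Alternatives were other scalings, DESeq2 1.42.0, other filters, the replicate number as a block, thinned counts and leaving out each library. For the values of the 10 genes a prior count of 2 in the fit was also used.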

Additional observations from a re-analysis of the deposited data

How the results depend on the processing

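The calls and directions of the 8 called genes were the same under every alternative that gave a value, with adjusted p at most 0.0207 (ADI1). With at least 10 counts required in every library, MTAP was not tested and 1 gene was higher in place of 2. MAT2A and PRMT5, both near 0, changed sign without being called. Their log2 fold changes were 0.073 and 0.067 with no normalization factors, 0.011 and 0.0040 with upper-quartile factors, 0.047 and 0.040 with at least 10 counts in every library, and 0.0053 and 0.0041 with thinned counts. Leaving out 1 library gave -0.082 to 0.030 for MAT2A and -0.052 to 0.0093 for PRMT5. Of 149 alternative values for the 10 genes, 137 kept direction and call and these 12 changed sign.

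The replicate numbers were not taken to pair the libraries, since the deviations of same-numbered libraries had correlations of -0.11, -0.06 and -0.03. With the replicate block, 10081 genes were called in place of 10594, and 2 of the 10 genes were higher and 6 lower as without it. Depth limits MTAP, whose 0 to 1 counts in SEM::mock give a bound and no fold.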
